A study of Mus musculus with 5 samples.

Results

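The T cells of 2 libraries of splenic CD4 T cells from an OT-II mouse were compared gene by gene, as the libraries whose barcodes end in 3 (G-3) and in 1 (G-1) of the aggregated matrix named G. A barcode counted as a T cell when it held at least 500 unique molecular identifiers (UMIs, each standing for 1 captured RNA molecule), at least 300 genes, at most 10% mitochondrial UMIs and at least 2 of the 5 T cell genes Cd3d, Cd3e, Cd3g, Lck and Lat. This gave 6285 T cells in G-3 and 5138 in G-1, together 11423 of the 25623 barcodes of the series and of its 22472 T cells. All 5 genes were found in 3319 of the T cells of G-3 and in 2903 of those of G-1.

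The study profiled 5 samples by droplet single-cell RNA sequencing from the 5′ end of transcripts. One held OT-II CD4 T cells alone, and 4 held such cells kept overnight with apCAFs, that is, cancer-associated fibroblasts able to present antigen. The apCAFs were sorted cells of pancreatic tumors grown in mice from clone sKPC or clone rKPC, and were given either DMSO or the OVA peptide. Each clone is 1 tumor line, the T cells of all samples are described as coming from the spleen of a naïve mouse carrying the OT-II receptor, and no age or further genotype is given. There is 1 library for each condition.

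Which condition G-3 and G-1 hold is inferred and not recorded. The labels place 2 samples in matrix G and 3 in matrix H, whereas G has 3 barcode suffixes and H has 2, and no source ties a suffix to a sample. If the 2 matrix names were exchanged and the suffixes followed the order of the samples, G-1 would be T cells with sKPC apCAFs and OVA, G-3 T cells with rKPC apCAFs and OVA, and the third library of the matrix, G-2, T cells with rKPC apCAFs and DMSO. The text below therefore uses the library names, and the comparison would be rKPC against sKPC apCAFs, both with OVA, only under that inference. With 1 library a side there is no test of a difference between conditions: every interval is an exact 95% interval that covers counting error only, and the spread between cultures is unknown.

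A CD4 T cell that meets its peptide on MHC class II signals through the T cell receptor (TCR) complex, and within hours transcribes the NR4A and EGR factors and IRF4, then CD25, costimulatory receptors and interleukin-2. OT-II T cells carry a transgenic receptor for an ovalbumin peptide. Interferon gamma acts on the same and on neighbouring cells through its receptor and the kinases JAK1 and JAK2. Its target promoters often hold GAS elements, the factor IRF1 carries the response further, and the guanylate-binding proteins (GBPs) and immunity-related GTPases (IRGs) are its classic targets.

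The T cells of G-1 and G-3 held 48383101 and 59047182 UMIs, with medians of 8812 and 8557 UMIs and 2971 and 2906 genes per cell. Mitochondrial UMIs made up 2.09% and 2.13%, and ribosomal protein UMIs 16.8% and 15.9%. The libraries shared 14 barcode sequences, 12 of them among T cells. Levels below are summed UMIs per 1000000 T cell UMIs (CPM), and ratios are G-3 over G-1 on the log2 scale. Levels of G-2 (3033 T cells) are given as a reference from the same matrix.

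Other cell types left RNA in both libraries. Erythroid marker genes summed to 833 CPM in the T cells of G-1, 61.1 in G-2 and 1007 in G-3, and 1 barcode held 30.8% of them in G-1 and 27.4% in G-3. The B cell sum was 145 CPM in G-1 and 182 in G-3, where 1 barcode held 25.3% of it. The myeloid sum was 144 and 146 CPM, the NK cell sum 12.3 and 10.2, the fibroblast sum 2.5 and 3.98, the epithelial sum 1.14 and 1.41, and the mesothelial sum 0.413 and 0.440, with Msln at 0 in both. At least 2 markers of the type were held by 239 T cells of G-1 and 521 of G-3 for erythroid cells, by 133 and 170 for B cells, by 193 and 153 for myeloid cells, and by 12 and 14 for fibroblasts. The endothelial list summed to 611 and 697 CPM, nearly all of it from Pecam1, a gene that is also active in T cells (611 and 697 CPM), and Cdh5 was at 0 in G-1.

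The labelled cell type was checked against its genes. Cd4 had a UMI in 34.5% of G-1 and 36.4% of G-3 T cells after each cell was thinned to 3000 UMIs, and in 60.0% and 60.8% without thinning. Erythroid barcodes without T cell markers, taken as a measure of free RNA, held Cd4 in 3 of 32 in G-1 and 1 of 38 in G-3, at median depths of 7533 and 7270.5 UMIs. Trdc, the delta chain constant region of gamma-delta T cells, had a UMI in 13.1% of thinned G-1 and 11.9% of thinned G-3 T cells. Without thinning these shares were 20.6% and 18.7%. Among erythroid barcodes Trdc was found in 1 of 32 and 0 of 38. The exact intervals of these reach 16.2% and 9.25%, the former above the thinned share of G-1. Cd8b1 was found in 2.06% and 1.96% of the thinned T cells. UMIs of Trdc and Cd8b1 were thus found beside those of Cd4, in about the same shares of T cells in both libraries.

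Across the 11730 genes with at least 200 UMIs over both libraries, the median ratio was 0.0075 and 52.4% of genes were higher in G-3. Here 454 genes (3.87%) were at least 25% higher in G-3, and 255 (2.17%) were at 0.8 times the level of G-1 or below. These limits are called the fold from here on. Many of these rested on single barcodes, as given further below. Spread genes were held by at least 100 T cells of both libraries together, with no cell holding over 5% of the pooled UMIs. Among these 11300 genes 243 were higher (2.15%) and 221 lower (1.96%) past the same fold. The T cells of the libraries thus lay close together, and the groups of genes below are read against these shares.

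The share of T cells with a strong TCR response was 9.18% in G-1 and 7.68% in G-3. Each cell was thinned to 3000 UMIs, leaving out 149 shallower cells of G-1, 130 of G-2 and 214 of G-3, and was called silent with none of the 7 genes Nr4a1, Nr4a2, Nr4a3, Egr1, Egr2, Egr3 and Irf4, strong with at least 3, and partial in between. These are ranges of a count and not cell types. Strong cells were 458 of 4989 in G-1 (8.39% to 10.0%), 466 of 6071 in G-3 (7.02% to 8.37%) and 4 of 2903 in G-2 (0.138%). The 2 intervals were only just apart, at 8.39% and 8.37%, after a single random thinning and with cells counted as independent. Both shares were far above that of G-2. Partial cells made up 13.4% and 12.5%, and silent cells 77.4% and 79.8%. Just below the limit, 161 cells of G-1 and 186 of G-3 held exactly 2 panel genes, and 149 and 155 held exactly 3. Without thinning the strong shares were 12.9% and 11.1%. Erythroid barcodes held Nr4a1 in 0 of 32 in G-1, with an exact interval up to 10.9%, and in 2 of 38 in G-3. They held Irf4 in 1 of 32 and 2 of 38, so barcodes without T cell markers also held panel UMIs. Median depth was 8628, 9655 and 11059 UMIs in the silent, partial and strong cells of G-1, and 8421, 9386 and 10607 in those of G-3.

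**Figure D1:**
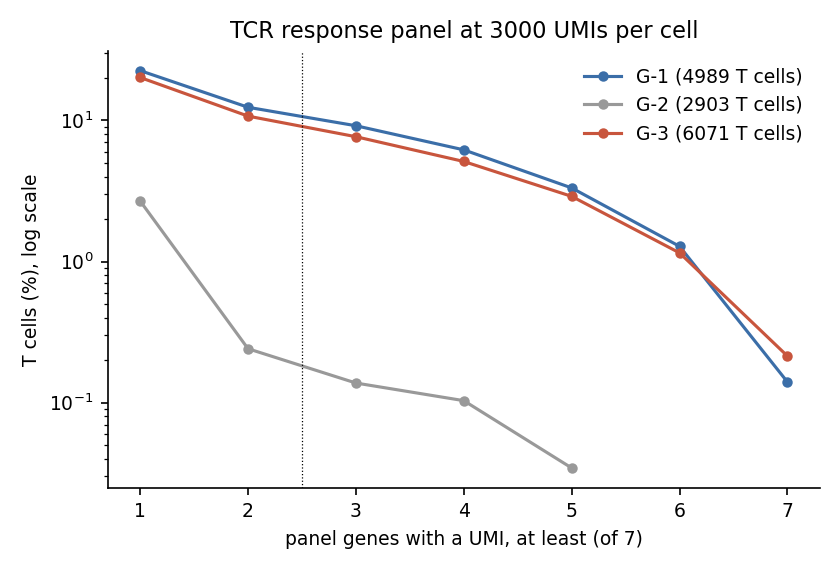
Share of T cells (%) by the number of the 7 TCR panel genes with a UMI, after thinning to 3000 UMIs per cell, in G-1, G-2 and G-3. G-1 and G-3 both have cells along the whole range, with 9.18% and 7.68% at 3 or more genes, whereas 97.3% of the cells of G-2 have none.

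The TCR-induced nuclear factors were slightly lower in G-3 over all T cells. Over all T cells 12 of the 14 listed factors were lower and 2 higher, with a median ratio of -0.11, and none was past the fold. Irf4 (chr13:30749226-30766976), a factor whose level follows the strength of the TCR signal, was at 157 CPM in G-1, 2.44 in G-2 and 133 in G-3 (-0.24, -0.29 to -0.19). Nr4a1 (chr15:101254269-101274795), the orphan receptor NUR77 and an immediate reporter of TCR signaling, was at 132, 3.54 and 117 CPM (-0.18). Myc, which drives growth after activation, was at 40.6 CPM in G-1 and 35.9 in G-3. The panel genes define the strong class and are not compared within it. Of the factors outside the panel, Myc was at 223 and 220 CPM in that class and Nfatc1, a factor that calcium signaling sends to the nucleus, at 408 and 390, while Batf, an AP-1 partner of IRF4, was past the fold at 19 and 28.9.

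Over all T cells, costimulatory and activation surface genes were also lower in G-3, and Tnfrsf9 was the one past the fold. Of 15 such genes 14 were lower and 1 higher, with a median of -0.12. Within the strong class 10 were higher and 5 lower, with a median of 0.039 and 2 past the fold downward. Of all 6632 genes tested in that class 53.2% were higher and 3.15% were past the fold downward. Tnfrsf9 (chr4:150914562-150946102) encodes 4-1BB, a costimulatory receptor of activated T cells, and was at 63.6 CPM in G-1, 3.77 in G-2 and 46.4 in G-3 (-0.46, -0.53 to -0.38). It was lower in each class, at 25 against 16.9 CPM in silent, 133 against 114 in partial and 225 against 173 in strong cells. Cd5, a receptor that dampens TCR signals, was at 176 CPM in G-1 and 143 in G-3, and Tnfrsf18, which encodes the costimulatory receptor GITR, at 80.4 and 67.6. Cd69, an early activation marker, was at 221 and 204 CPM over all T cells, but at 1192 and 1252 within the strong class. Cd28, the receptor for B7 ligands, was the 1 higher gene, at 411 and 413 CPM. Cd44, an adhesion receptor of activated cells, was at 46.0 CPM in the partial cells of G-1 and 71.5 in those of G-3.

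Interleukin-2 went the other way. Il2 (chr3:37120523-37125959), the growth factor that activated CD4 cells secrete, was at 7.17 CPM in G-1 (347 UMIs), 0.629 in G-2 and 13.3 in G-3 (786 UMIs), a ratio of 0.89 (0.71 to 1.08). Most of it came from few cells. In the strong class it was at 48.8 CPM in G-1, from 18 of 458 cells, and at 105 in G-3, from 30 of 466 cells (1.10, 0.89 to 1.32). Cells with a UMI made up 3.93% (2.35% to 6.14%) of the strong class in G-1 and 6.44% (4.39% to 9.06%) in G-3, and these intervals overlapped. In all thinned T cells the shares were 0.501% and 0.758%, against 0 of 32 and 0 of 38 erythroid barcodes. The exact intervals of these zeros reach 10.9% and 9.25%, well above the Il2 shares. At this number of barcodes free RNA thus cannot be told apart from expression by this measure. One cell of the strong class held 87 of the Il2 UMIs of G-1 and one held 159 of those of G-3, and without these 2 cells the ratio there was 1.24. Over other cell filters the ratio in all T cells ran from 0.52, without cells that carry markers of another cell type, to 1.81, without the 6% of cells with the most UMIs. The sign was therefore the same over these filters and the size was not.

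Of the 13 genes of the interleukin-2 pathway, 8 were higher and 5 lower in G-3, with 3 past the fold upward and a median of 0.09. Il2ra, the CD25 chain that makes the receptor high-affinity, was at 229 CPM in G-1, 8.45 in G-2 and 200 in G-3 (-0.19). Socs3 (chr11:117966079-117970047), a feedback inhibitor of cytokine receptors, was at 14.1, 17.8 and 21.5 CPM (0.61, 0.47 to 0.75), and at 16.7 against 24.5 in silent cells. The level of G-2 thus lay between those of G-1 and G-3. The 2 libraries of matrix H had 23.1 and 21.0 CPM of Socs3, nearer to G-3 than to G-1, so G-1 was the lowest. Lif, a cytokine of activated T cells, was at 3.24 CPM in G-1 and 4.32 in G-3. Other cytokines were few: 9 of 15 listed passed the UMI minimum, 4 higher and 5 lower, with a median of -0.01. Csf2, which encodes the growth factor GM-CSF, was the 1 past the fold downward, at 4.42 CPM in G-1 and 2.83 in G-3. Xcl1, a chemokine that draws cross-presenting dendritic cells, was the 1 past it upward, at 4.2 and 5.45 CPM, and 1 cell held 32.5% of it in G-1 and 61.5% in G-3. Ifng itself stayed below the minimum, at 1.14 CPM in G-1, 1.14 in G-2 and 1.63 in G-3.

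The GTPases induced by interferon gamma had the highest median ratio of the 26 gene lists. The promoters of 4 genes are printed here, those of Gbp2, Gbp5 and Igtp from this list and that of Irf1 from the interferon gamma chain. They are the 250 bases before the RefSeq start on GRCm38.p6, with matches to GAS (TTCNNNGAA) and ISRE (GAAA, any 2 bases, then GAAA), searched on both strands, in capitals. The windows lie on the plus strand at chr3:142620413-142620662 for Gbp2, chr3:142496684-142496933 for Gbp5, chr11:58199306-58199555 for Igtp and chr11:53769764-53770013 for Irf1.
Gbp2: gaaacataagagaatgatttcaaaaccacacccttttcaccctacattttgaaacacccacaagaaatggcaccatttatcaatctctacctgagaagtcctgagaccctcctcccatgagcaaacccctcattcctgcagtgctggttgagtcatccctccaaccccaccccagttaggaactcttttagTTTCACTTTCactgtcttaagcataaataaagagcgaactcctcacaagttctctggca
Gbp5: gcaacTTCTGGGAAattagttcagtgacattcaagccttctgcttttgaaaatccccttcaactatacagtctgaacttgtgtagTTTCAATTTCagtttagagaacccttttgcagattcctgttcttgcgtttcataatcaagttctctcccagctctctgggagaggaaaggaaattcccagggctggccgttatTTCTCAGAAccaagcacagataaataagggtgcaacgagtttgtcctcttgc
Igtp: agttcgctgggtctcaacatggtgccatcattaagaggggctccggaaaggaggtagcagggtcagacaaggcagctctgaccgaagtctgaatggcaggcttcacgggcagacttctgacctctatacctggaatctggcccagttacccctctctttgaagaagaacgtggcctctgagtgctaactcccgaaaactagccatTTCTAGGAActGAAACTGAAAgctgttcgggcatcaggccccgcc
Irf1: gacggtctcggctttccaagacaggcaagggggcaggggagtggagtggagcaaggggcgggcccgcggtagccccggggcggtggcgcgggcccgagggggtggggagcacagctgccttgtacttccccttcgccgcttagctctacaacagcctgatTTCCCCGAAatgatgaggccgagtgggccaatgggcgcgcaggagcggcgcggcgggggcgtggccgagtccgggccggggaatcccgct

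Gbp2 has an ISRE match that begins 59 bases before its start. Gbp5 has GAS matches 245 and 52 bases before its start and an ISRE match at 165. Igtp has a GAS match at 45 and an ISRE match at 34 bases, and Irf1 has a GAS match at 90. Of the 16 listed GTPases 10 had a usable promoter in the table, and 6 of these (60%) held GAS and 9 (90%) ISRE. Among all 32851 promoter windows the shares were 7.02% and 2.98%. The TCR-induced factors had 8 of 14 in the table, with GAS in 1 (12.5%) and ISRE in 0. A match describes these letters only.

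Of the 16 GTPases 15 were higher in G-3 and 1, Gbp6, was lower, with a median ratio of 0.20 and 4 past the fold, against 3.87% of all genes. Their summed level was 1685 CPM in G-1, 705 in G-2 and 1981 in G-3 (0.23, 0.22 to 0.25). Gbp2 (chr3:142620602-142638008) encodes a GTPase that assembles on the vacuoles of intracellular pathogens, and was at 140 CPM in G-1, 31.2 in G-2 and 180 in G-3 (0.36, 0.32 to 0.41). Gbp5 (chr3:142493978-142522344), a relative that promotes inflammasome assembly, was at 48.5, 8.61 and 70.4 CPM (0.54, 0.46 to 0.61), the highest ratio of the list. Iigp1, which encodes the IRG protein Irga6, was at 270, 78.0 and 356 CPM (0.40). Both libraries were thus above G-2 for each of these genes, and G-3 was the higher of the 2. Gbp3 was at 25.9 CPM in G-1 and 32.4 in G-3, Igtp at 181 and 198, and Gbp6 at 54.8 and 53.9. Several of these genes lie in tandem arrays of close relatives, so reads can be split between neighbours, and the sum is less open to this than a single gene.

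The rest of the interferon gamma chain differed less. Of its 8 genes 6 were higher and 2 lower, none past the fold, with a median of 0.05. Irf1 (chr11:53770014-53778374), a transcription factor that interferon gamma induces, was at 214 CPM in G-1, 116 in G-2 and 249 in G-3 (0.22). Ifngr1, the ligand-binding receptor chain, was at 569, 705 and 614 CPM. Jak1 and Jak2, the receptor kinases, were at 814 and 824 CPM and at 174 and 171. Targets in antigen presentation and of type I interferon also differed less than the GTPases. In the MHC class I list 8 of 19 were higher and 11 lower, with a median of -0.01, the highest being Nlrc5, its transactivator, at 243 and 288 CPM. Of 25 type I interferon-stimulated genes past the minimum 19 were higher and 6 lower, with a median of 0.06, and 0 were past the fold. Cd274 (chr19:29367455-29388095), which encodes the interferon-inducible ligand PD-L1, was at 135 CPM in G-1, 32.5 in G-2 and 158 in G-3. Pdcd1lg2, the gene of the other PD-1 ligand, was at 24.8, 1.93 and 19.1 CPM, and Lag3, an inhibitory receptor for MHC class II, at 2.75, 2.12 and 3.91. These last 2 were the members past the fold among 9 inhibitory receptors and ligands tested, of which 3 were higher and 6 lower, with a median of -0.06.

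**Figure D2:**
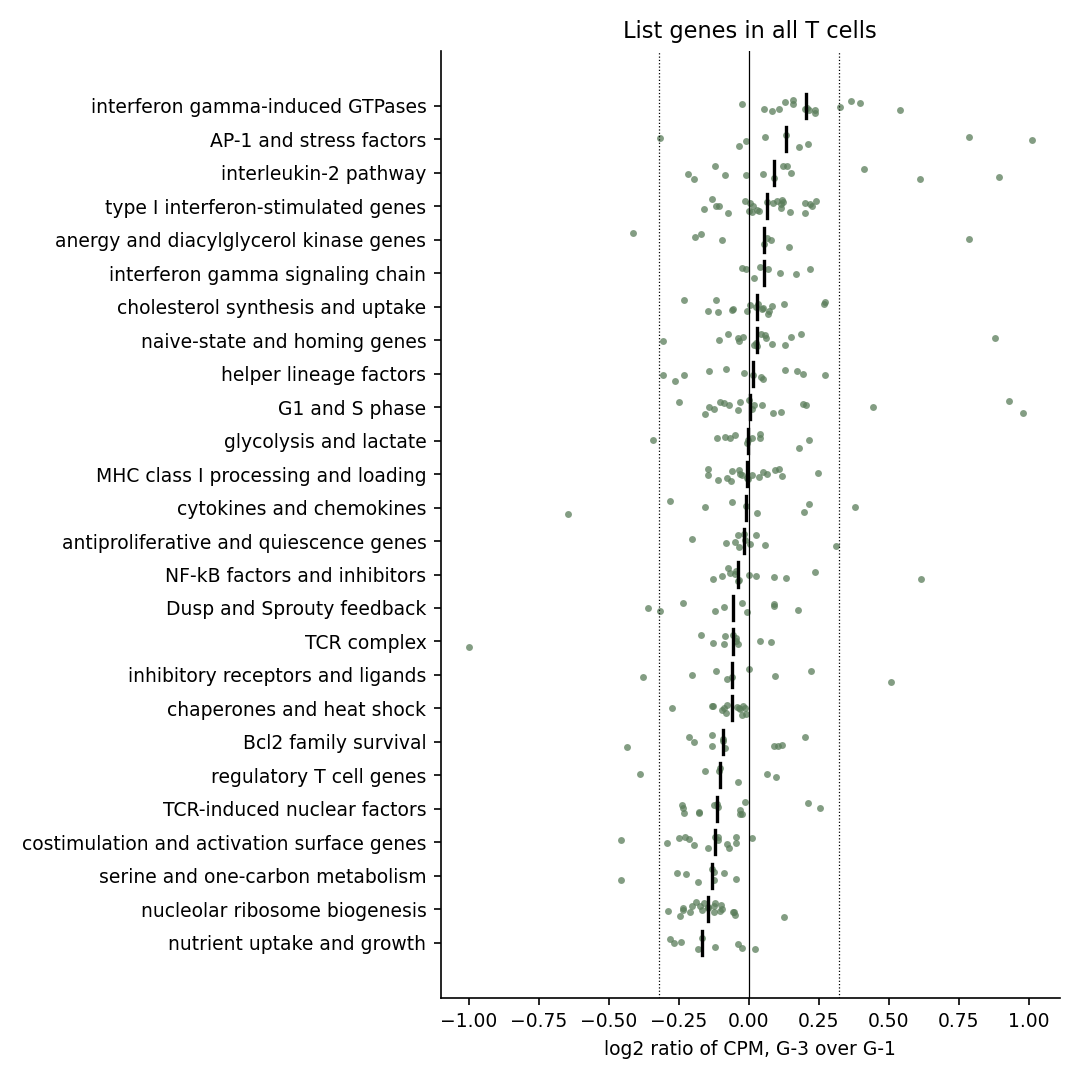
Log2 ratio of CPM, G-3 over G-1, for each gene past the UMI minimum in the gene lists over all T cells; points are genes, the short bar of each list is its median, and dotted lines mark the fold. The interferon gamma-induced GTPases lie highest with a median of 0.20, and the lists of TCR-induced factors, costimulation, nutrient uptake, one-carbon metabolism and ribosome biogenesis lie below 0.

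The GTPase difference was also seen in silent cells, which had none of the 7 panel genes at 3000 UMIs. This does not show that they had no TCR response. Without thinning silent cells made up 67.5% of G-1 and 69.9% of G-3 T cells, so some held panel UMIs at full depth. Silent cells had 1956 CPM of GTPase transcripts in G-1, 705 in G-2 and 2273 in G-3 (0.22), with 15 of 16 members higher and 4 past the fold, against 2.99% of the 11104 genes tested in that class. Of those genes 2.37% were past it downward, and 50.8% were higher. Thinned to 3000 UMIs, a silent cell held a mean of 6.08 GTPase UMIs in G-1, 2.16 in G-2 and 7.16 in G-3, and medians of 4, 1 and 5. Cells with at least 10 such UMIs made up 21.2% of the silent cells of G-1, 2.58% of G-2 and 26.0% of G-3, and cells with at least 1 made up 87.8%, 74.5% and 90.1%. The whole distribution of G-3 thus lay above that of G-1, at the low end as well as at the high end. Gbp2 had a UMI in 21.7% of thinned G-1 and 28.7% of thinned G-3 T cells, and without thinning in 37.7% and 45.4%. Erythroid barcodes held it in 4 of 32 in G-1 (12.5%) and 1 of 38 in G-3 (2.63%). The exact intervals of these reach 29.0% and 13.8%, the former above the thinned share of G-1. Iigp1 was found in 28.3% and 34.9% of thinned T cells, and in 39.2% and 47.9% without thinning. Erythroid barcodes held Iigp1 in 1 of 32 (3.12%) and 3 of 38 (7.89%), with intervals up to 16.2% and 21.4%.

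**Figure D3:**
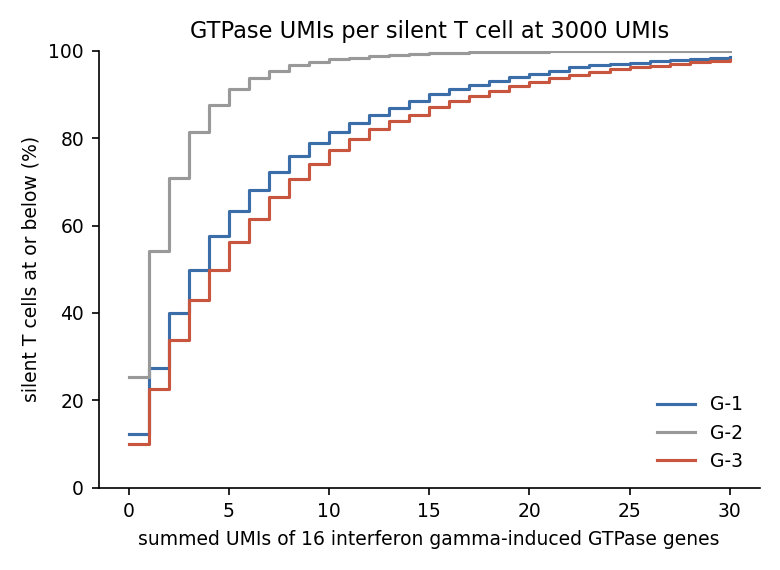
Cumulative share of silent T cells (%) by the number of UMIs of the 16 interferon gamma-induced GTPases in a cell thinned to 3000 UMIs, for G-1, G-2 and G-3. The curve of G-3 lies to the right of that of G-1, with medians of 5 and 4 UMIs, and both lie to the right of G-2 with a median of 1.

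In partial cells the sum was 1135 CPM in G-1 and 1410 in G-3 (0.31), with 14 of 15 tested members higher and 5 past the fold, against 6.14% of the 7797 genes tested there, of which 53.8% were higher. Iigp1 was at 157 and 255 CPM and Gbp2 at 94.5 and 138 in these cells. In strong cells the sum was 610 and 551 CPM (-0.15), with 5 of 12 tested members higher and 7 lower, 1 past the fold upward and 3 downward, against 6.57% and 3.15% of the 6632 genes tested. This direction rested on single cells. Gbp2 was at 75.1 CPM in the strong cells of G-1 and 50.6 in those of G-3, and 1 cell of G-1 held 145 of its 411 UMIs. Leaving out the top cell of each library gave 48.6 and 46.3 CPM for Gbp2 (-0.07), and a ratio of 0.15 for the GTPase sum. In both libraries the level was highest in silent, lower in partial and lowest in strong cells.

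**Figure D4:**
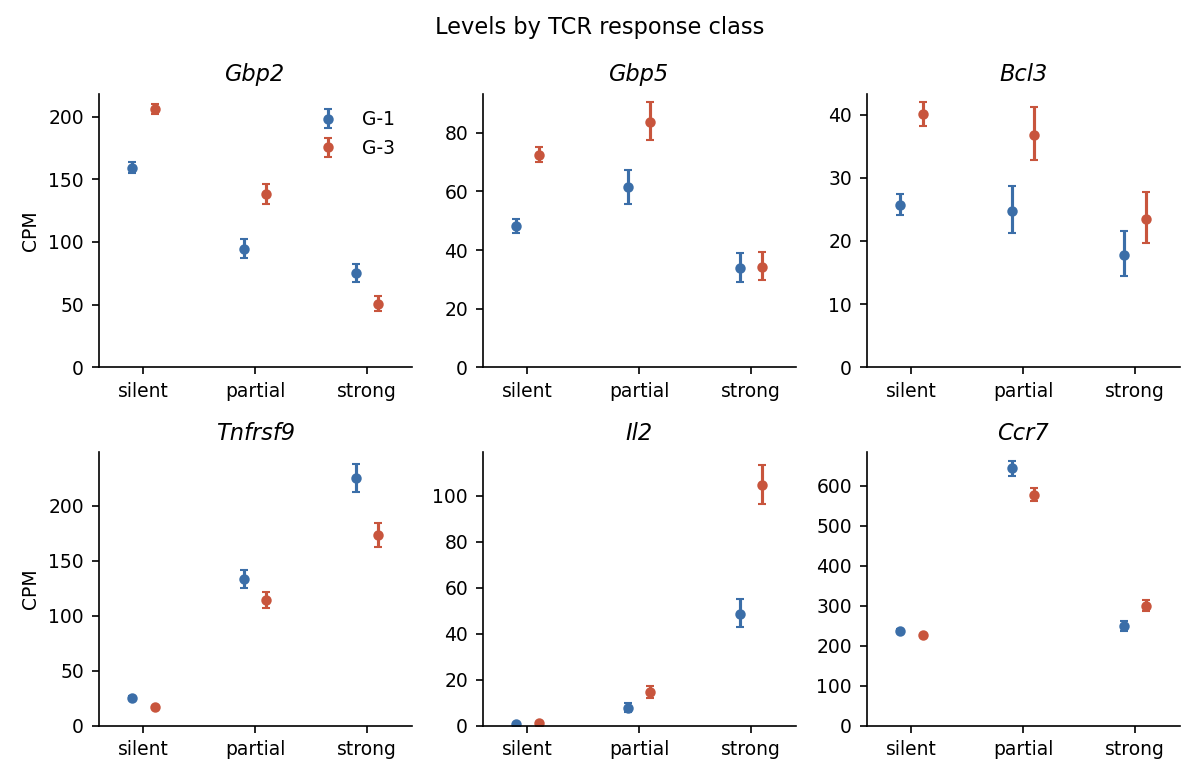
CPM of Gbp2, Gbp5, Bcl3, Tnfrsf9, Il2 and Ccr7 in the silent, partial and strong T cells of G-1 and G-3; bars are exact 95% Poisson intervals, which cover counting error only. Bcl3 is higher in G-3 in each class, Tnfrsf9 is lower in each, and the GBP genes are higher in silent and partial cells.

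The spread genes with the largest ratios upward were mixed. Htr1f, a serotonin receptor gene, led them at 3.37 CPM in G-1, 3.97 in G-2 and 7.28 in G-3 (1.11), and the first 9 by rank also held Rps27rt, Mxd1, Lrrc6, Bcl3, Fbxo47, the olfactory receptor gene Olfr1033 and the pseudogenes Ftl1-ps1 and Olfr1369-ps1. Bcl3 (chr7:19808462-19822770), an IκB family member that acts in the nucleus on NF-κB p50 and p52, was at 24.8 CPM in G-1, 13.5 in G-2 and 37.9 in G-3 (0.62, 0.51 to 0.72). It was higher in silent (25.7 against 40.1 CPM), partial (24.8 against 36.8) and strong cells (17.7 against 23.4). The other 13 genes of the NF-κB list were within the fold, and over all 14 there were 6 higher and 8 lower with a median of -0.04: Nfkb1, the p105 and p50 subunit, was at 768 and 732 CPM. Mxd1, a partner of MAX that opposes MYC, was at 18.3, 16 and 31.8 CPM in G-1, G-2 and G-3 (0.80), and Pim2, a survival kinase induced by cytokines, at 50.2, 38.4 and 69.7 (0.48). Of the AP-1 list 6 of 9 tested were higher and 3 lower, with a median of 0.13. Fosb, at 1.45 and 2.91 CPM, and Fosl1, at 2.21 and 3.81, were past the fold but were not spread genes. Junb, the AP-1 member that binds with BATF, was at 150 and 174 CPM.

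Btg1 (chr10:96617006-96622809), which holds back proliferation and keeps T cells quiescent, was at 911 CPM in G-1, 806 in G-2 and 1129 in G-3 (0.31, 0.29 to 0.33), just inside the fold, and higher in all 3 classes. The quiescence list as a whole was level, with 4 of 11 higher and 7 lower and a median of -0.02. The naive-state and homing list had 11 of 17 higher and 6 lower, with a median of 0.03, and its 1 member past the fold, Igfbp4, was not a spread gene. Among strong cells both lists were higher in G-3. All 15 tested naive-state genes were higher there, with 5 past the fold and a median of 0.27. Of all genes tested in that class 53.2% were higher and 6.57% were past the fold upward. Il7r, the interleukin-7 receptor of resting cells, was at 79.6 CPM in G-1 and 114 in G-3, and its ratio fell from 0.51 to 0.27 without the top cell of each library. Klf3 was at 41.5 and 57.4 CPM, Tcf7, a factor of naive and memory cells, at 193 and 242, and Ly6c1 at 41.8 and 55.7. Of 10 tested quiescence genes 9 were higher in the strong class, 4 past the fold, with a median of 0.20, among them Tsc22d3, the glucocorticoid-induced GILZ, at 21.2 and 33.9 CPM and Txnip, a brake on glucose uptake, at 35.1 and 47.9. Strong cells of G-3 thus held more of the transcripts of resting cells than those of G-1, at a median depth of 10607 against 11059 UMIs, and whether RNA of resting cells enters here was not tested.

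Growth and biosynthesis genes were lower in G-3 in small steps over all T cells, and less evenly within classes. Of 22 nucleolar genes of ribosome biogenesis 21 were lower and 1 higher, with a median of -0.15 and none past the fold. Within the partial class all 22 were lower, 5 of them past the fold against 3.92% of all genes there, with a median of -0.24 and a sum of 3924 CPM in G-1 and 3368 in G-3. Ppan, a factor of large-subunit assembly, was at 53.4 and 37.1 CPM in partial cells, and Fbl, which encodes the RNA methyltransferase fibrillarin, at 139 and 111. In silent and strong cells the same sums differed by 0.01 and -0.02. Nutrient uptake genes were lower in 8 of 9 and higher in 1 (median -0.17), such as Slc1a5, a glutamine carrier, at 94.3 and 79.7 CPM. All 9 serine and one-carbon genes were lower (median -0.13), and Shmt1, which moves the one-carbon unit from serine to folate, was past the fold at 13.5 CPM in G-1, 4.84 in G-2 and 9.82 in G-3. The one-carbon sums had ratios of -0.07 in silent, -0.17 in partial and -0.03 in strong cells. All 14 tested chaperones were lower over all T cells with a median of -0.06. By class, 7 of 14 were lower in silent, 13 of 14 in partial and 9 of 14 in strong cells. Glycolysis genes were lower in 7 of 12 and higher in 5 (median -0.01), with Eno1, the enzyme enolase, at 89.1 and 70.3 CPM. Cholesterol genes were higher in 11 of 18 and lower in 7 (median 0.03).

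The remaining lists were near level over all T cells. Dusp and Sprouty feedback genes were higher in 3 of 10 and lower in 7 (median -0.06), with Dusp6, a phosphatase of ERK, past the fold at 6.63 and 5.17 CPM. Bcl2 family genes were higher in 4 of 12 and lower in 8 (median -0.09), with Bcl2a1d, an anti-apoptotic member, past the fold at 42.7 and 31.6 CPM and with near-identical copies. Anergy genes were higher in 5 of 9 and lower in 4 (median 0.05), with Izumo1r, the folate receptor 4 of anergic and regulatory cells, at 27.2 and 20.4 CPM and Rnf128, the ubiquitin ligase GRAIL, at 3.02 and 5.2. Regulatory T cell genes were higher in 2 of 7 and lower in 5 (median -0.10), with Foxp3, the defining factor, at 11.1 CPM in G-1, 5.15 in G-2 and 8.48 in G-3. Helper lineage factors were higher in 7 of 13 and lower in 6 (median 0.02), none past the fold. Of 20 tested cell cycle genes 11 were higher and 9 lower (median 0.01), with Ccne1, Mki67 and Top2a past the fold upward. Mki67 was at 2.19 CPM in G-1, 7.12 in G-2 and 4.32 in G-3, and 1 cell held 23.1% of its UMIs in G-3.

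A separate set of genes was lower in G-3 in every class and against all 4 other libraries. Trac (chr14:54220521-54224206), the constant region of the TCR alpha chain, was at 7570 CPM in G-1, 6614 in G-2 and 3786 in G-3 (-1.0, -1.01 to -0.99). The libraries of the other matrix, which was aggregated separately, had 7221 and 6742 CPM. The ratio was -0.98 in silent, -1.03 in partial and -0.98 in strong cells, and Trac was found in 6273 of the 6285 T cells of G-3 and in 5133 of the 5138 of G-1. The beta chain constant regions did not share this, with Trbc2 at 2327 and 2234 CPM and Trbc1 at 537 and 520. Cd247, the zeta chain, was higher. The V segments of the receptor, given below, were lower in G-3. Cd3d, Cd3e and Cd3g chose the T cells and are not compared here. Of the 11 genes of the TCR complex, Trac was the 1 past the fold. The T cell rule used 5 of these genes, so the directions and the median of this list are not read here. Gstp1 (chr19:4035407-4037985), a glutathione transferase, was at 49.3 CPM in G-1, 55.9 in G-2 and 17.8 in G-3 (-1.47). Il31ra (chr13:112519898-112594360), a cytokine receptor chain, was at 21.5, 16.3 and 7.82 CPM (-1.46). In the other matrix Gstp1 was at 62.2 and 55.8, and Il31ra at 34.6 and 27.3. Rps27rt, a retrocopy of a ribosomal protein gene, was at 58.2, 54.3 and 99.1 CPM, and at 82.3 and 81.1 in the other matrix, which is nearer to G-3. Gstp1, Rps27rt and the lower histone gene Hist2h2aa1 have near-identical copies in the genome, so how reads were divided among copies may enter and their values are uncertain. Whether the counting of G-3 differed from that of the other libraries was not tested.

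The V segments of the OT-II receptor are known as V alpha 2 and V beta 5. The V beta 5 segments summed to 32.1 CPM in G-1, 40.5 in G-2 and 23.5 in G-3 (-0.45, -0.56 to -0.34). The V alpha 2 segments summed to 6.06, 6.05 and 4.57 CPM (-0.41, -0.65 to -0.16). In the other matrix the sums were 42.4 and 36.6 CPM for V beta 5 and 6.32 and 6.92 for V alpha 2. G-3 was thus the lowest library for both. Trbv12-2, a V beta 5 segment, had a UMI in 8.46% of G-1, 11.5% of G-2 and 6.85% of G-3 T cells after thinning, and in 23.8%, 27.0% and 18.2% without it. Most T cells of each library therefore had no UMI of it at this depth.

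The largest ratios upward rested mostly on single barcodes. Of the 12 named genes with the largest ratios upward, all 12 had over 20% of their G-3 UMIs in 1 cell, and 0 were spread genes. Ptgs2, the inducible prostaglandin synthase, was at 0 CPM in G-1, 24.0 in G-2 and 10.9 in G-3, at least 175-fold higher in G-3 when G-1 is set to a floor of 3 UMIs, and 92.1% of its UMIs lay in 1 barcode. That barcode held 237972 UMIs and also led Dkk2, Hmga2, Grem1, Ccbe1, Slit2 and Col8a1. Grem1, a secreted antagonist of bone morphogenetic proteins made by stromal cells, was at least 56.5-fold higher by the same floor, and Hmga2 was at 0.207 CPM in G-1, 51.0 in G-2 and 19.4 in G-3. Mcpt8 and Prss34, proteases of basophils, were at 0.0413 and 14.6 CPM and at 0.0827 and 12.9, led by a barcode of 41360 UMIs. Elane and Mpo, of granulocyte precursors, came from a barcode of 65378 UMIs, and Jchain, of antibody-secreting cells, at 0.496 and 14.4 CPM, from one of 31183.

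Downward, 8 of the 12 named genes had over 20% of their UMIs in 1 cell and 3 were spread genes, among them Gstp1 and Il31ra. Cxcl9, a chemokine induced by interferon gamma in myeloid cells, was at 4.77 CPM in G-1 and 0.0339 in G-3, and 81.0% of its UMIs in G-1 lay in 1 barcode of 67506 UMIs. Pf4, of platelets and megakaryocytes, was at 16.3 and 2.30 CPM with 65.9% in 1 barcode of G-1. Other genes with a leading barcode were Ccl17, Penk, Sorcs1, Rab27b and Saa3, and those barcodes had passed the T cell rule. Hist1h2ap, a histone gene with near-identical copies, was at 10.8 CPM in G-1, 15.8 in G-2 and 4.47 in G-3 (-1.28). Its top cell held 2.67% of its UMIs in G-1, over 397 cells.

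**Figure D5:**
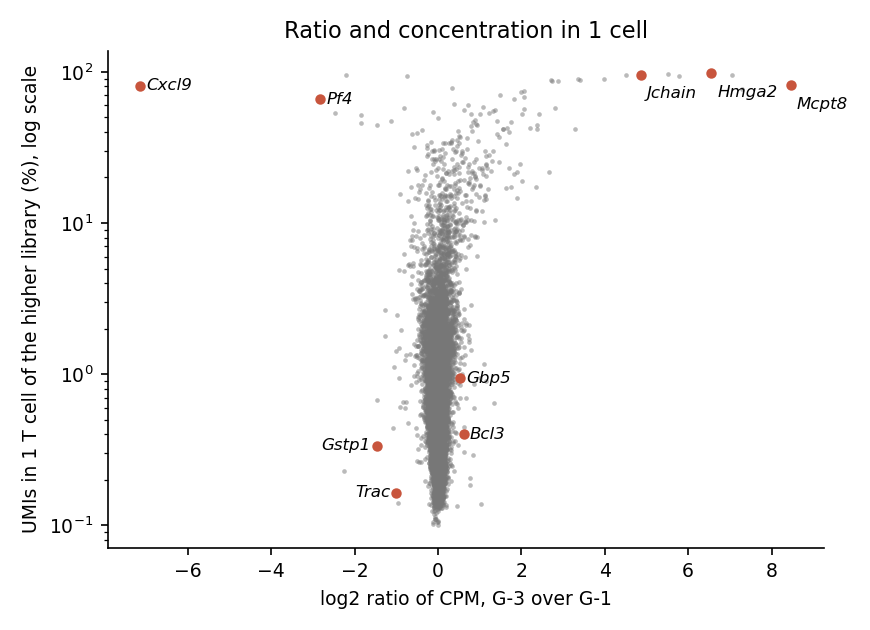
Each point is a gene past the UMI minimum; the x axis is the log2 ratio of CPM, G-3 over G-1, and the y axis, on a log scale, is the share (%) of its UMIs in the single T cell that holds most of them, in the library where it is higher. Genes far from 0 such as Jchain, Hmga2, Mcpt8, Pf4 and Cxcl9 sit near the top of the plot, while Gbp5, Bcl3, Trac and Gstp1 sit at or below 1%.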

How the data were processed

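The values are whole-number UMI counts per gene and barcode, deposited by the authors as 2 aggregated matrices, G (16628 barcodes) and H (8995), each with 32285 genes. Reads were processed with Cell Ranger 6.0.0 on mm10, per the submitters' processing notes, while the matrices name cellranger 7.1.0, per the file headers. Whether aggregation equalised depth and whether intronic reads were counted are not given in the sources used here. The members and gene lists were chosen with earlier results of these data known.

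UMI counts of the T cells were summed per library and scaled to 1000000 (CPM). Intervals are exact at 95%: Poisson for CPM, Clopper-Pearson for shares, binomial for ratios. They cover counting error only and treat UMIs as independent, and cells of 1 library are not replicates, so no p-value is given. Genes needed 200 UMIs over both libraries, and "past the fold" means a ratio of at least 1.25 or at most 0.8. Genes were named as the 12 largest ratios each way by the interval bound nearest 1, leaving out mitochondrial, ribosomal protein, TCR segment, immunoglobulin and predicted genes; in addition the 20 largest spread genes each way were considered, a selection added after the data were seen, and members of 26 gene lists. Some genes that the rule or the lists hold are not reported here. Shares were compared at 3000 UMIs per cell. No doublet caller was run; filters on depth and on markers of other cell types stand in for one. Promoters are from RefSeq (GRCm38.p6) and gene positions from GENCODE on GRCm38. The interval and ratio code was checked on simulated data. Python 3.11.15, numpy 2.4.6, scipy 1.17.1, pandas 2.3.3 and matplotlib 3.10.9 were used.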

Additional observations from a re-analysis of the deposited data

How the results depend on the processing

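No paired analysis was possible because there is 1 library a side and no replicate number to share, and leaving out a replicate would leave no comparison. The counts of genes past the fold, 454 higher and 255 lower in G-3, became 163 and 116 with a minimum of 500 UMIs, 2194 and 1350 with a minimum of 20, and 174 and 57 at 1.5-fold. The higher count fell to 255 without the 6% of T cells with the most UMIs (291 lower), to 267 without T cells holding 2 markers of another type (320 lower), to 149 after thinning (231 lower), and to 243 over spread genes, an alternative chosen after seeing the data. Scaling by the median ratio shifted all genes by 0.0075. Without T cells holding 2 markers of another type, 22 of the 26 list sums moved outside their interval, by at most 0.086, and 1 changed sign. With scaling that left out mitochondrial and ribosomal protein genes 15 moved, by at most 0.016. Without cells holding gamma-delta or CD8 genes 11 moved, by at most 0.073, and 2 changed sign. Small differences of list sums thus depend on these choices.

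The strong shares of G-1 and G-3 were 5.94% and 5.05% at 1500 UMIs, 12.9% and 11.1% without thinning, 12.4% and 10.7% with at least 2 panel genes, 8.35% and 6.53% without the 6% deepest cells, and 11% and 8.69% without cells holding gamma-delta or CD8 genes, so G-1 had the larger share in each of these. The GTPase ratio was 0.20 in silent, 0.36 in partial and -0.011 in strong cells when classes were set without thinning. With a panel of surface and cytokine genes it was 0.19 in silent and 0.47 in strong cells, and without the top cell of each library, an alternative chosen after seeing the data, 0.15 in strong cells.

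Of the genes reported here with over 20% of their UMIs in 1 barcode, 5 changed sign under some of the alternatives, while others, such as Sorcs1 and Penk, kept their sign under each one run. With at least 3 T cell markers Pf4 was at 0.49, Rab27b at 0.71 and Saa3 at 0.29. Without the 6% deepest cells Pf4 was at 0.37, Rab27b at 0.41, Saa3 at 0.75 and Ccl17 at 1.48. Without cells holding markers of another type Pf4 was at 0.38, Saa3 at 0.42, Ccl17 at 1.51 and Col8a1 at -0.64. After thinning Saa3 was at 0.13 and Col8a1 at -0.28. Ccl17 was at 1.75 without gamma-delta and CD8 cells and at 1.41 without its top cell.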
